A study of Mus musculus with 12 samples.

Results

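The genes described here are RNA-binding and splicing factors, 56 of the 4859 coding genes in a table of sorted cells from the embryonic mouse cerebral cortex. They were taken by symbol alone, as the listed genes that belong to the Elavl, Celf, Nova, Rbfox, Ptbp, Hnrn, Srsf, Srrm, Snrp, Lsm, Rbm, Rbms, Khdrbs, Mbnl, Msi, Igf2bp, Cpeb, Pabp, Tnrc6, Ddx and Dhx families, together with Qk. The rule reads symbols and no measured value, but the members were chosen with earlier results of these data known. Symbols of further families that the rule covers, such as Fmr1 or Lin28, are not analysed here. By role the 56 genes comprise 19 regulators of alternative splicing, 2 heterogeneous nuclear ribonucleoproteins (hnRNPs), 4 serine- and arginine-rich (SR) splicing proteins, 6 core proteins of the spliceosome and of related small ribonucleoproteins, 6 RBM or RBMS proteins, 9 genes of the DDX and DHX helicase families, and 10 genes of mRNA translation, stability and transport.

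Bulk RNA-seq was made from cells of the mouse strain Tg(Ebf2-EGFP)FB58Gsat, separated by FACS into Ebf2-EGFP+ and Ebf2-EGFP- fractions at each of 3 stages (E11.5, E13.5, E15.5), with 2 libraries in each of the 6 groups. All 6 groups carry the same transgene, in which Ebf2 regulatory sequence drives EGFP, and each library came from the pooled cortices of several EGFP+ embryos. From the study's description, Ebf2-EGFP+ cells at E11.5 are mostly preplate neurons, both subplate and Cajal-Retzius (CR) neurons, while by E15.5 they are mostly CR neurons. The Ebf2-EGFP- fraction is everything else in the dissected cortex, mainly progenitor cells at E11.5 and a mixture that also holds cortical plate neurons later.

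RNA-binding proteins decide which exons of a primary transcript are joined, and how long the finished mRNA lasts, where it goes and how much of it is translated. Neurons use a characteristic set of them: the ELAVL (Hu), RBFOX, CELF and NOVA proteins and SRRM4 are switched on as progenitors become neurons, and RBFOX3 carries the NeuN epitope used to mark neurons. Dividing progenitors are instead known for high levels of the general splicing machinery, of QKI (encoded by Qk) and of the IGF2BP proteins.

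Expression was deposited as FPKM (fragments scaled to transcript length and to the mapped fragments of a library), a level that can be compared between genes because it is divided by length. The table lists only genes that the authors reported as differential between the populations. Most listed genes therefore pass a test of that difference, and counts of the 56 genes are set beside the share of all 4859 genes that pass. Library depth is unknown from FPKM. Differences are log2 fold changes on the scale log2(FPKM + 1), Ebf2-EGFP+ minus Ebf2-EGFP- unless stated otherwise, tested with limma over all 12 libraries. A gene was called when its Benjamini-Hochberg adjusted p was under 0.05. The scale understates changes of genes near or under 1 FPKM. With 2 libraries against 2 an exact permutation test of a single gene cannot give a p under 0.333, so none was made. In bulk RNA, fewer cells that express a gene cannot be told apart from less of its RNA per cell.

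CR and radial glia markers matched the labels of the sorts. The 7 CR markers in the table summed to between 246 and 259 FPKM in Ebf2-EGFP+ cells against between 11.1 and 11.8 FPKM in Ebf2-EGFP- libraries at E11.5, and to between 539 and 1157 against between 14.0 and 18.3 FPKM at E15.5. The 8 radial glia markers were each called lower at all 3 stages in Ebf2-EGFP+ cells, and their sum still reached between 406 and 430.2 FPKM there at E11.5. Cortical plate markers did not separate the sorts that way. Their sum (7 genes) in Ebf2-EGFP- cells went from between 59.4 and 61.3 FPKM at E11.5 to between 429 and 542 FPKM at E13.5 and between 590.4 and 682 FPKM at E15.5, and in Ebf2-EGFP+ cells it was between 413 and 456 FPKM, then 977 FPKM in both libraries, then between 680.4 and 976 FPKM. The sums overlapped at E15.5, when the description has Ebf2-EGFP+ cells as mostly CR neurons and all 7 CR markers were called higher. The cortical plate list is not exclusive, since the study reports Tbr1 in CR neurons and transient Fezf2 in Ebf2-EGFP+ cells. Whether cortical plate neurons were among the sorted cells was not tested. Of the 7 cortical plate genes 4, 6 and 5 were called higher in Ebf2-EGFP+ cells at the 3 stages in turn, and 1 was called lower at E15.5.

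At E11.5 Ebf2-EGFP- cells are mainly progenitors. The listed splicing regulators known from neurons were then higher in Ebf2-EGFP+ cells, and most listed genes of the general splicing machinery were lower. Machinery genes that the table does not list cannot be read here. Of the 56 genes 23 were called higher and 27 lower, where 36.8% and 44.9% of all listed genes were called in those directions (81.7% in either). Libraries of the populations did not overlap for 27 genes with Ebf2-EGFP+ above and 28 with it below, beside 42.5% and 50.1% of all listed genes. The roles split: 16 of the 19 splicing regulators were higher and 2 lower, with a median log2 fold change of 1.70 against -0.19 over all 4859 genes, while both hnRNPs, all 4 SR proteins and 4 of the 6 core proteins were lower. Median-of-ratios scaling of the libraries shifted the median of all genes by 0.19 toward higher values at E11.5 and E13.5. Under it 25 of the 56 genes were called higher and 21 lower at E11.5, beside 1967 and 1984 of all 4859 listed genes. Of the 19 splicing regulators 17 were then called higher and 2 lower.

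**Figure D1:**
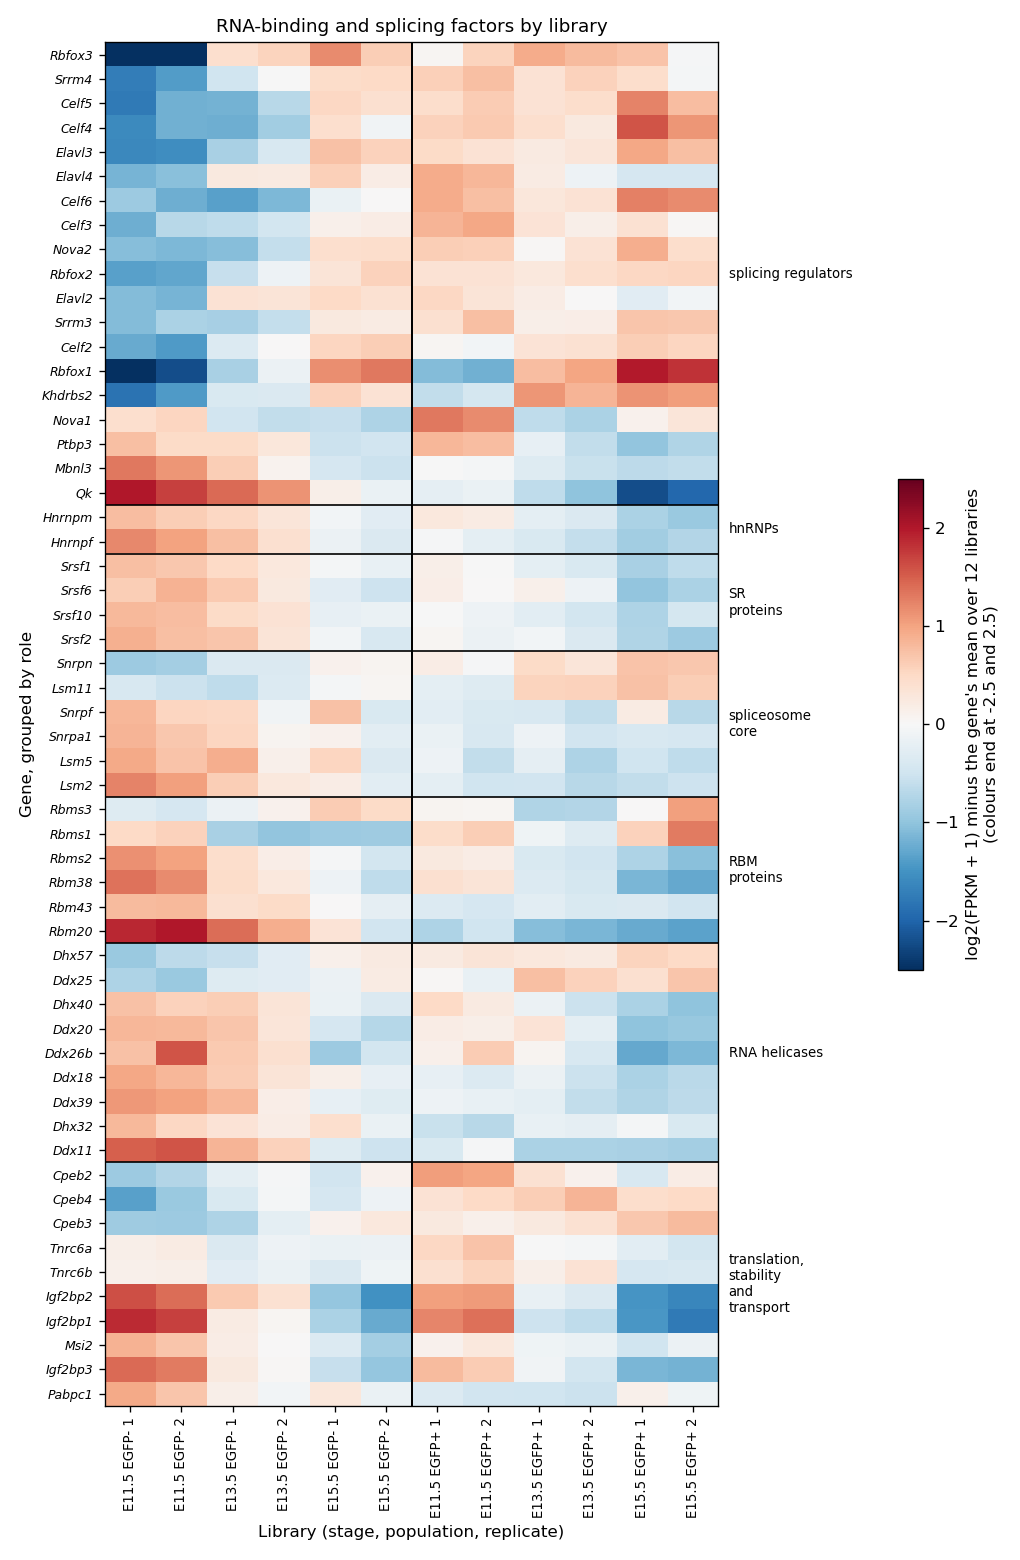
Level of each of the 56 genes in each of the 12 libraries, as log2(FPKM + 1) minus the gene's own mean over the 12 libraries, with genes in rows grouped by role and libraries in columns (Ebf2-EGFP- left of the vertical line, Ebf2-EGFP+ right of it). Most splicing regulators are below their mean in the 2 E11.5 Ebf2-EGFP- libraries, and Qk, the hnRNPs and the SR proteins are above it there; colours end at -2.5 and 2.5, which Rbfox3 passes in Ebf2-EGFP- cells at E11.5.

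The RBFOX proteins, which regulate neuronal exons through a shared RNA recognition motif, gave the largest increase. Rbfox3 measured 17.0 and 24.6 FPKM in the 2 Ebf2-EGFP+ libraries and 0.954 and 1.75 FPKM in the 2 Ebf2-EGFP- libraries at E11.5 (log2 fold change 3.21, standard error 0.28, limma adjusted p = 1.58e-06), the highest log2 fold change among the 56 genes. Rbfox2, whose E13.5 value of 0.69 was 0.46 without Ebf2-EGFP- library 1 of that stage and which was the most abundant of the 3 paralogues in every group, stood at 111 and 111 FPKM against 32.9 and 34.2 FPKM (log2 fold change 1.70, standard error 0.17, limma adjusted p = 3.51e-06). Rbfox1 was scarce in both populations, at 5.27 and 4.79 FPKM against 1.23 and 1.87 FPKM (log2 fold change 1.25, standard error 0.22, limma adjusted p = 2.07e-04). The libraries of both populations did not overlap for any of these 3 genes at E11.5.

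The 3 neuronal Elavl genes encode RNA-binding proteins that stabilise mRNAs carrying AU-rich elements and also act on splicing. Elavl3 measured 167 and 154 FPKM in Ebf2-EGFP+ cells, against 38.4 and 40.2 FPKM in Ebf2-EGFP- cells at E11.5 (log2 fold change 2.001, standard error 0.16, limma adjusted p = 1.04e-06). Elavl2 was at 81.1 and 71.1 FPKM against 25.9 and 24.5 FPKM (log2 fold change 1.55, standard error 0.14, limma adjusted p = 1.95e-06), and Elavl4 at 81.3 and 75.9 FPKM against 18.4 and 20.03 FPKM (log2 fold change 1.98, standard error 0.16, limma adjusted p = 1.14e-06). The populations did not overlap for any of the 3 Elavl genes at this stage.

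Among the Celf genes, whose products bind GU-rich sequence in introns and 3' ends, all 5 listed paralogues were called higher at E11.5, with log2 fold changes from 1.33 (Celf2) to 2.02 (Celf5). Celf3 was the most abundant, at 159 and 175 FPKM in Ebf2-EGFP+ cells against 37.5 and 54.3 FPKM. Celf6 was the scarcest, at 9.43 and 8.19 FPKM against 1.92 and 1.35 FPKM. Libraries did not overlap for any of the 5, with limma adjusted p = 7.74e-06 for Celf2 and 7.75e-06 for Celf5.

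Srrm4, which drives the inclusion of neuronal microexons, measured 43.2 and 48.7 FPKM in Ebf2-EGFP+ cells, against 7.90 and 10.2 FPKM in Ebf2-EGFP- cells at E11.5 (log2 fold change 2.23, standard error 0.21, limma adjusted p = 2.37e-06). Its paralogue Srrm3 stood lower in level, at 7.80 and 10.2 FPKM against 2.16 and 2.84 FPKM (log2 fold change 1.51, standard error 0.18, limma adjusted p = 1.28e-05). Of the Nova genes, regulators of synaptic transcripts, Nova2 had a log2 fold change of 1.71 and Nova1 one of 0.76 (limma adjusted p = 9.99e-06 and 0.00108). Khdrbs2, a STAR-family regulator of neuronal splicing, measured 11.6 and 13.3 FPKM against 4.38 and 6.22 FPKM (log2 fold change 1.11, standard error 0.17, limma adjusted p = 9.60e-05).

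3 of the 19 splicing regulators did not follow the rest at E11.5. Qk encodes another STAR-family protein, prominent in neural progenitors and glia, and measured 28.4 and 29.6 FPKM in Ebf2-EGFP+ cells against 137 and 112 FPKM in Ebf2-EGFP- cells (log2 fold change -2.06, standard error 0.19, limma adjusted p = 2.05e-06). Mbnl3, a muscleblind protein, was low in level and called lower, at 0.633 and 0.597 FPKM against 3.12 and 2.55 FPKM (log2 fold change -1.24, standard error 0.16, limma adjusted p = 2.87e-05). Ptbp3, a paralogue of the polypyrimidine tract binding proteins, was at 9.80 and 9.44 FPKM against 9.31 and 7.49 FPKM and was not called (log2 fold change 0.18, standard error 0.19, limma adjusted p = 0.381), but was called higher under median-of-ratios scaling (limma adjusted p = 0.0444). Qk was the only one of the 19 to be called lower at all 3 stages.

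The promoters of 4 of these genes are printed because they show sequence from both sides of the split: Rbfox3 and Qk have the largest increase and the largest decrease at E11.5 among the splicing regulators with a RefSeq window, and Elavl3 and Srsf10 (an SR protein described below) were added after their motif matches had been seen. Each window runs from 250 bases before to 50 bases after the annotated start of 1 RefSeq transcript in build GRCm38.p6, written 5' to 3' on the gene's strand: chr11:118760992-118761291 on the minus strand for Rbfox3, chr9:22051974-22052273 on the minus strand for Elavl3, chr17:10319312-10319611 on the minus strand for Qk and chr4:135855821-135856120 on the plus strand for Srsf10. Capitals mark matches, on either strand, to the CCAAT box (CCAAT), the GC box (GGGCGG), an E-box (CAGCTG), the TATA box (TATAAA) or an E2F site (TTTCCCGC), which can overlap one another.
Rbfox3: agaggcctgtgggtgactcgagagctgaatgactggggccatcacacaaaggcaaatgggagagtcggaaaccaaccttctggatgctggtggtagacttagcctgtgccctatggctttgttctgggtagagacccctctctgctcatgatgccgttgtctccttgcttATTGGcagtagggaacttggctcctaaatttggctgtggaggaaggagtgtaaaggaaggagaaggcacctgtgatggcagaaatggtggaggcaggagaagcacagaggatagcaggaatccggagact
Elavl3: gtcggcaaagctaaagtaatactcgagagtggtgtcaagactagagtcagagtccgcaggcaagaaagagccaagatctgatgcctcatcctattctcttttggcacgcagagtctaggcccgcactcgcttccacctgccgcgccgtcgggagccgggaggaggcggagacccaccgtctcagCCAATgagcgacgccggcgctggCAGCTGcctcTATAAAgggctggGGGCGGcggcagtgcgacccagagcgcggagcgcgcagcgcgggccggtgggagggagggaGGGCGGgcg
Qk: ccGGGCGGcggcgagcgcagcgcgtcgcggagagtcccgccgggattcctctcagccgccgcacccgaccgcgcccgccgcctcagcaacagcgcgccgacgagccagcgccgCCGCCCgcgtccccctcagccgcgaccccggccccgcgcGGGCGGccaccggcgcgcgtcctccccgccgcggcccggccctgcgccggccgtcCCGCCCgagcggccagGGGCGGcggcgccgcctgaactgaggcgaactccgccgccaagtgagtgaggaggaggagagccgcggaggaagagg
Srsf10: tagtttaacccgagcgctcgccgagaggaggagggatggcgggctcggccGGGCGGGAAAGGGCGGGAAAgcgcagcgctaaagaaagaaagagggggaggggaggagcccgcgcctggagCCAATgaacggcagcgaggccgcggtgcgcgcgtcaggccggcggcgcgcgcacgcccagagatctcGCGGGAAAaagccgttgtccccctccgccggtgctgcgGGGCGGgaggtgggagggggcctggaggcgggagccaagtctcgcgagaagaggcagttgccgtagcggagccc
The Rbfox3 window holds 1 CCAAT box and no GC box, and the Qk window holds 5 GC boxes and no CCAAT box. Elavl3 has 1 CCAAT box, 2 GC boxes, 1 E-box and 1 TATA box. Srsf10 has 3 E2F matches, beside 1 CCAAT box and 3 GC boxes.

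RefSeq windows were found for 47 of the 56 genes (89 windows, since some genes have several starts). A GC box lay in 53.9% of the 89 windows and in 35.7% of all 32851 windows of this length, an E-box in 22.5% against 16.3%, a CCAAT box in 43.8% against 37.4%, and a TATA box in 11.2% against 13.6%. The E2F letters were found for 2 of the 47 genes, Srsf1 and Srsf10, where 1.24% of all genes have them. The cyclic AMP response element (TGACGTCA) was found for 4, Celf3, Celf6, Lsm2 and Msi2, where 2.03% of all genes have it. The palindromic EBF motif, named for the family of the Ebf2 gene itself, was in none of the 89 windows and in 0.904% of all windows. Windows of 1 gene can overlap, so these shares are descriptions, and a match is not evidence of binding.

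At E13.5 20 of the 56 genes were called higher in Ebf2-EGFP+ cells and 25 lower, beside 32.1% and 43.5% of all listed genes (75.6% in either direction). At E15.5 12 were higher and 18 lower, beside 25.8% and 31.6% (57.4% in either). Both libraries of one population lay above those of the other for 23 genes upward and 32 downward at E13.5 (39.1% and 49.7% of all), and for 16 and 29 at E15.5 (34.7% and 44.6%). The splicing regulators, with 16 genes higher and 2 lower at E11.5, had 12 higher and 3 lower at E13.5 and 6 higher and 3 lower at E15.5, and their median log2 fold change went from 1.70 at E11.5 to 0.74 and 0.08. With the replicate block they had 7 higher and 5 lower at E15.5. Blocking on the replicate number, which pairs the populations within a stage, gave 29 genes lower at E15.5 in place of 18, while leaving out Ebf2-EGFP- library 1 of E15.5 gave 7. Median-of-ratios scaling, which moved the median of all genes by 0.13 at E15.5, gave 15 higher and 12 lower.

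**Figure D2:**
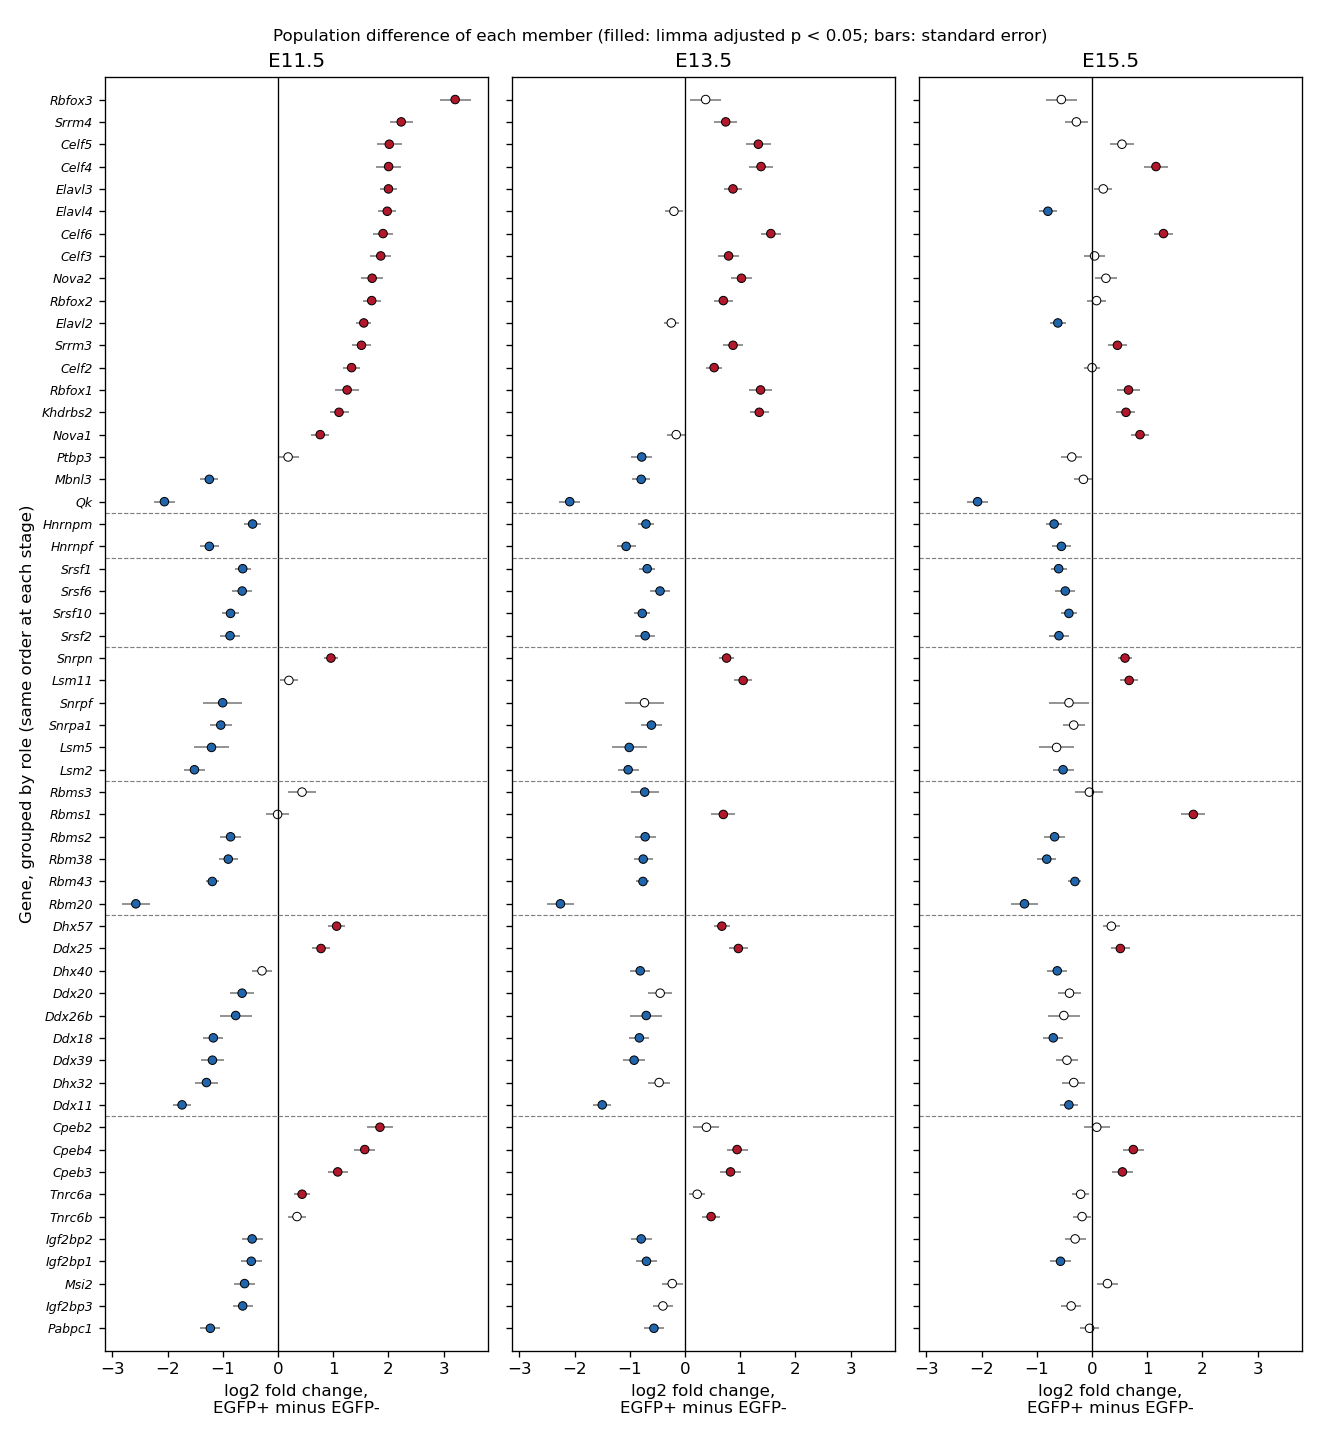
Population difference of each of the 56 genes at the 3 stages (panels), as the log2 fold change of FPKM + 1 between Ebf2-EGFP+ and Ebf2-EGFP- cells (x axis) with its standard error, genes in rows grouped by role and ordered by their E11.5 value. Filled points have a limma adjusted p under 0.05 (red higher, blue lower in Ebf2-EGFP+ cells), and the splicing regulators in the top block move toward 0 from left to right while Qk stays near -2.

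Elavl2 and Elavl4 were 2 of the 56 genes called in opposite directions at different stages, as 7.78% of all listed genes were. No other member was in the fit used for the calls. Rbfox3 was with the replicate block (given below), and Ptbp3 under median-of-ratios scaling, higher at E11.5 and lower at E13.5. Rbms3 was with the compared groups alone, higher at E11.5 (limma adjusted p = 0.00525) and lower at E13.5. Without some single E15.5 libraries Rbms3, Msi2 and Rbfox3 were too. Elavl4 measured 48.8 and 38.8 FPKM in Ebf2-EGFP+ cells, against 50.5 and 49.8 FPKM in Ebf2-EGFP- cells at E13.5, then 31.6 and 31.6 FPKM and 64.3 and 48.2 FPKM at E15.5. The Ebf2-EGFP- libraries had thus passed both Ebf2-EGFP+ libraries by E13.5, when Elavl4 was not called (log2 fold change -0.20, standard error 0.16, limma adjusted p = 0.277), and Elavl4 was called lower at E15.5 (log2 fold change -0.80, standard error 0.16, limma adjusted p = 0.00152). Under median-of-ratios scaling the E13.5 values of Elavl2 and Elavl4 changed sign without being called (log2 fold changes 0.06 and 0.10), and both E15.5 calls remained.

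Elavl2 followed the same course, at 64.1 and 56.6 FPKM against 73.1 and 70.5 FPKM at E13.5 and 46.3 and 53.4 FPKM against 79.9 and 74.0 FPKM at E15.5 (log2 fold change -0.62, standard error 0.14, limma adjusted p = 0.00274). Elavl3 parted from its paralogues. It was higher in Ebf2-EGFP+ cells at E13.5, at 139 and 146 FPKM against 67.2 and 89.9 FPKM (log2 fold change 0.87, standard error 0.16, limma adjusted p = 5.12e-04), and measured 233 and 201 FPKM against 198 and 179 FPKM at E15.5, where it was not called (limma adjusted p = 0.297).

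**Figure D3:**
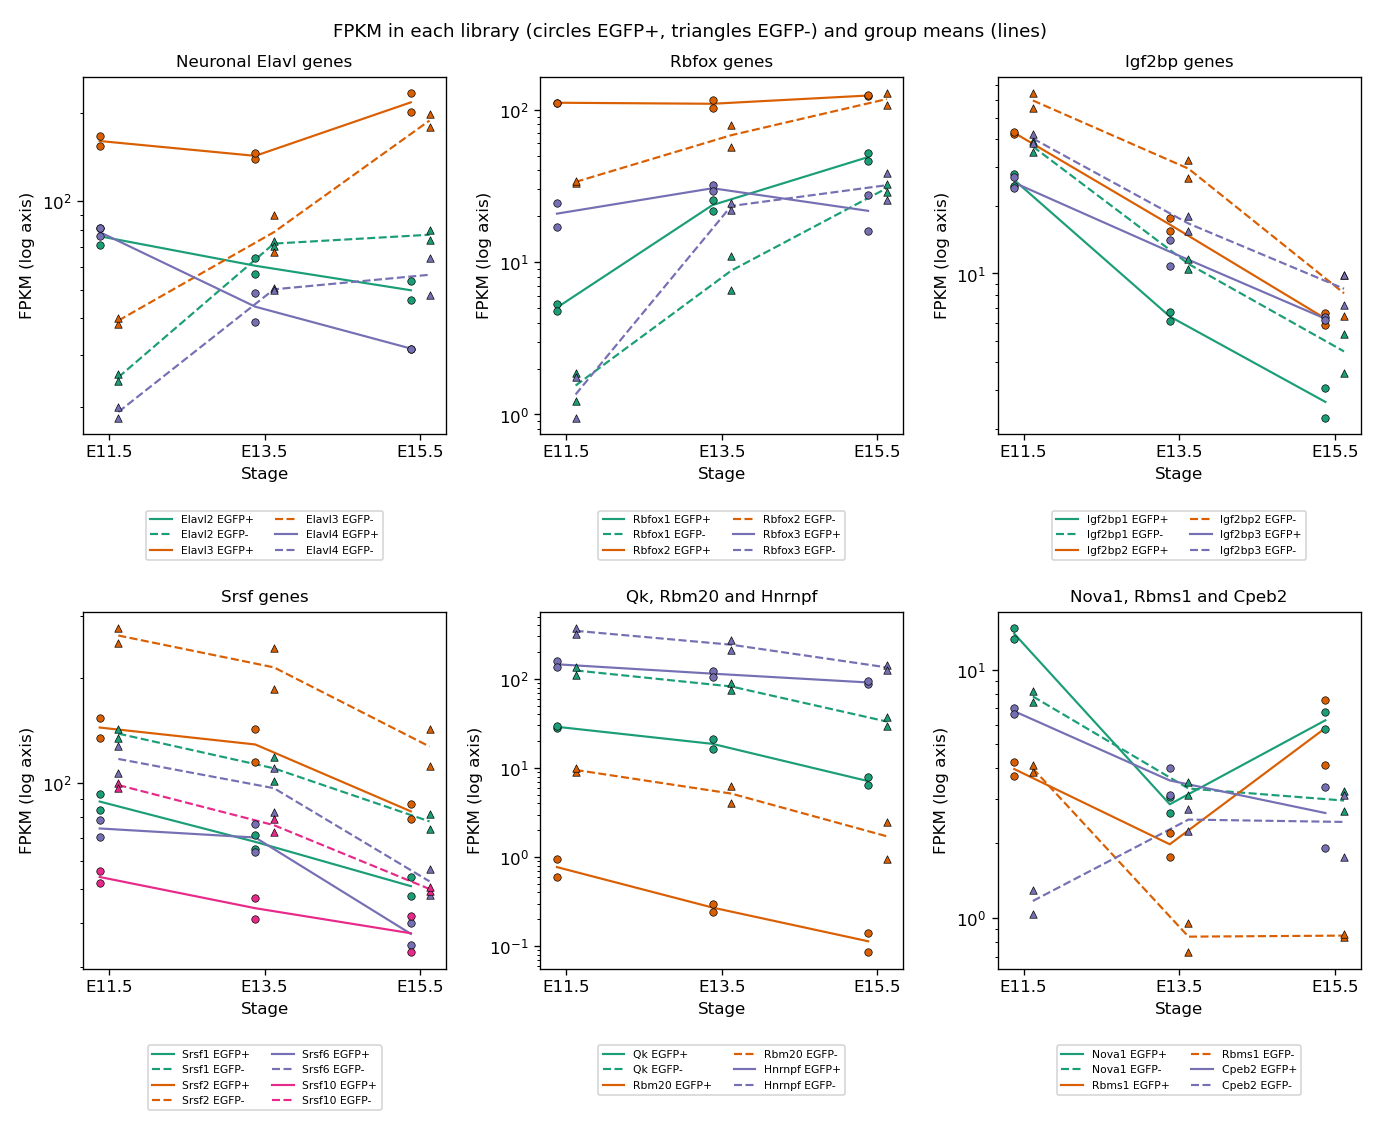
FPKM in each library (circles Ebf2-EGFP+, triangles Ebf2-EGFP-) and group means (solid and dashed lines) over the 3 stages on log axes, for the Elavl, Rbfox, Igf2bp and Srsf genes and for Qk, Rbm20, Hnrnpf, Nova1, Rbms1 and Cpeb2. The dashed lines of Elavl2 and Elavl4 cross above the solid lines between E11.5 and E13.5, the Igf2bp genes fall in both populations, and Rbms1 at E15.5 is at least 4.12 FPKM in Ebf2-EGFP+ and at most 0.860 FPKM in Ebf2-EGFP- cells.

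For Rbfox3 no population difference was called after E11.5. Its FPKM were 31.9 and 29.1 in Ebf2-EGFP+ against 22.1 and 24.5 in Ebf2-EGFP- cells at E13.5, and 27.4 and 16.0 against 38.5 and 25.4 at E15.5, where the libraries overlapped. The values did not pass the test (log2 fold changes 0.37 and -0.56, limma adjusted p = 0.238 and 0.105), but with the replicate block it was called higher at E13.5 and lower at E15.5 (limma adjusted p = 0.0127 and 0.00162), and median-of-ratios scaling also called it higher at E13.5 (limma adjusted p = 0.0311). Rbfox1 rose with time in both populations and stayed called higher in Ebf2-EGFP+ cells at all 3 stages, at 51.8 and 45.8 FPKM against 28.7 and 32.3 FPKM at E15.5 (log2 fold change 0.66, standard error 0.22, limma adjusted p = 0.0212). That E15.5 call was lost without Ebf2-EGFP- library 1 of E15.5 (limma adjusted p = 0.102) and without Ebf2-EGFP+ library 1 of E15.5 (limma adjusted p = 0.108).

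The Celf genes differed among themselves by E15.5. Celf4 and Celf6 were called higher at every stage in Ebf2-EGFP+ cells, also in the fit without each single library: Celf4 measured 104 and 75.3 FPKM against 46.9 and 32.7 FPKM at E15.5 (log2 fold change 1.16, standard error 0.22, limma adjusted p = 9.75e-04) and Celf6 12.1 and 11.4 FPKM against 3.88 and 4.55 FPKM (log2 fold change 1.29, standard error 0.18, limma adjusted p = 1.02e-04). Celf2 and Celf3 reached 122 and 115 FPKM and 114 and 90.03 FPKM in Ebf2-EGFP+ cells, beside 115 and 122 FPKM and 96.7 and 100.005 FPKM in Ebf2-EGFP- cells. The libraries of Celf2 and Celf3 overlapped and neither was called (limma adjusted p = 1 and 0.847). Celf5, with both Ebf2-EGFP+ libraries higher (81.3 and 58.6 FPKM against 49.2 and 45.2 FPKM), was not called (limma adjusted p = 0.0556), but was with the replicate block and with median-of-ratios scaling (limma adjusted p = 0.00505 and 0.017).

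Nova1, by contrast, was called higher at the first and last stages and not between them. It was at 3.08 and 2.66 FPKM in Ebf2-EGFP+ and 3.52 and 3.12 FPKM in Ebf2-EGFP- cells at E13.5 (limma adjusted p = 0.391), and at 5.76 and 6.74 FPKM against 3.23 and 2.71 FPKM at E15.5 (log2 fold change 0.87, standard error 0.17, limma adjusted p = 9.93e-04). Nova2 was called higher at E13.5 (log2 fold change 1.02, standard error 0.19, limma adjusted p = 6.06e-04) and reached 65.0 and 46.7 FPKM in Ebf2-EGFP+ against 45.7 and 46.7 FPKM in Ebf2-EGFP- libraries of E15.5, where it was not called (limma adjusted p = 0.285). Srrm4 went from a log2 fold change of 2.23 at E11.5 to 0.74 and -0.28, and its E15.5 libraries (38.6 and 27.5 FPKM against 39.2 and 40.6 FPKM) did not pass the test (limma adjusted p = 0.251). The E13.5 call of Srrm4 was lost without Ebf2-EGFP- library 1 (limma adjusted p = 0.0761) or Ebf2-EGFP+ library 2 of that stage (limma adjusted p = 0.0535).

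Qk kept its deficit throughout. It measured 21.2 and 16.1 FPKM against 90.3 and 74.3 FPKM at E13.5 and 6.37 and 7.87 FPKM against 36.9 and 29.5 FPKM at E15.5, with log2 fold changes of -2.09 and -2.07 (limma adjusted p = 5.68e-06 and 6.12e-06). The difference between the E15.5 and E11.5 log2 fold changes was -0.02 with a standard error of 0.26. In both populations its level fell over time (mean ± SD, n = 2), Ebf2-EGFP- cells going from 124 ± 17.9 to 33.2 ± 5.25 FPKM and Ebf2-EGFP+ cells from 29.0 ± 0.865 to 7.12 ± 1.06 FPKM.

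Whether the population difference itself changed between E11.5 and E15.5 was tested as an interaction, the log2 fold change at E15.5 minus that at E11.5. Of the 56 genes 12 were called higher and 16 lower, where 32% and 27.7% of all listed genes were (59.8% in either direction). The splicing regulators made up most of the fall: 12 of the 19 were called lower and 1 higher, with a median of -1.33 against 0.17 over all genes. The largest falls were those of Rbfox3 (-3.77, standard error 0.39, limma adjusted p = 2.36e-05), Elavl4 (-2.78), Srrm4 (-2.52) and Elavl2 (-2.17). With a pseudocount of 0.1 the split over the 56 genes was 8 higher and 18 lower, and the 12 higher calls became 7 without Ebf2-EGFP- library 1 of E11.5 and 7 without Ebf2-EGFP- library 2 of E15.5.

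Each population's own change shows the sides of this. From E11.5 to E15.5, 23 of the 56 genes rose and 30 fell in Ebf2-EGFP- cells, beside 37.7% and 47.6% of all listed genes (85.4% in either direction), and 15 of the 19 splicing regulators were among those that rose. The E15.5 libraries lay above those of E11.5 for 23 of the 56 genes and below them for 32, beside 41.8% and 51.5% of all. Median-of-ratios scaling moved the median of all genes by 0.22 here and gave 23 that rose and 28 that fell. Rbfox3 went from 1.35 ± 0.564 to 31.9 ± 9.26 FPKM (mean ± SD, n = 2) in these cells (log2 fold change 3.80, standard error 0.28, limma adjusted p = 3.16e-07), Rbfox1 from 1.55 ± 0.455 to 30.5 ± 2.56 FPKM (log2 fold change 3.64, standard error 0.22, limma adjusted p = 8.17e-08) and Elavl3 from 39.3 ± 1.28 to 188 ± 13.54 FPKM (log2 fold change 2.23, standard error 0.16, limma adjusted p = 2.95e-07). The summed cortical plate markers given above rose over the same interval in the same libraries, and their part in these rises was not tested.

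In Ebf2-EGFP+ cells 9 of the 56 genes rose and 29 fell between E11.5 and E15.5, beside 33.3% and 42.1% of all listed genes (75.4% in either direction). Here 15 lay above without overlap and 32 below, beside 39.5% and 50.1% of all. Median-of-ratios scaling, which moved the median of all genes by 0.14, gave 16 that rose and 25 that fell. Of the splicing regulators 5 rose, Celf2, Celf4, Elavl3, Khdrbs2 and Rbfox1, and 7 fell. Rbfox1 had the largest rise, from 5.27 and 4.79 to 51.8 and 45.8 FPKM (log2 fold change 3.05, standard error 0.22, limma adjusted p = 3.45e-07), and Khdrbs2 rose from 11.6 and 13.3 to 41.0 and 38.6 FPKM (log2 fold change 1.60, standard error 0.17, limma adjusted p = 7.23e-06). Among those that fell were Elavl4 (log2 fold change -1.29, standard error 0.16, limma adjusted p = 2.42e-05), Nova1 (log2 fold change -1.05, standard error 0.17, limma adjusted p = 1.31e-04) and Ptbp3 (log2 fold change -1.67, standard error 0.19, limma adjusted p = 1.05e-05). The rise of Elavl3 was lost without library 1 or 2 of E11.5 or library 1 of E15.5 in Ebf2-EGFP+ cells (limma adjusted p = 0.0588, 0.133 and 0.159), and that of Celf4 without library 1 of either stage (limma adjusted p = 0.0546 and 0.105).

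Because FPKM is divided by length, each listed paralogue has a share in the summed FPKM of its family's listed members. Paralogues that the table does not list, such as Elavl1 and Celf1, are left out of these sums. Shares are given here as the mean ± SD of 2 libraries with no test. Summed over Elavl2, Elavl3 and Elavl4, the family stood at 315 ± 19.6 FPKM in Ebf2-EGFP+ against 83.7 ± 1.44 FPKM in Ebf2-EGFP- libraries at E11.5, and at 298 ± 17.2 and 321 ± 29.1 FPKM at E15.5. In Ebf2-EGFP+ cells Elavl3 held 50.9% ± 0.392 of it at E11.5 and 72.6% ± 3.27 at E15.5, and Elavl4 25.0% ± 0.350 and 10.6% ± 0.607. In Ebf2-EGFP- cells Elavl3 went from 46.9% ± 0.721 to 58.6% ± 1.10. The sums were thus close at E15.5 while the share of Elavl3 was higher in both Ebf2-EGFP+ libraries.

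For the Rbfox genes the share of Rbfox1 in Ebf2-EGFP+ cells stood at 3.68% ± 0.382 at E11.5, then 14.5% ± 0.780 at E13.5, and 25.1% ± 0.714 by E15.5, beside 4.22% ± 1.02, 8.64% ± 1.36 and 17.0% ± 0.664 in Ebf2-EGFP- cells. Rbfox3 at E11.5 made up 15.1% ± 3.37 of the family in Ebf2-EGFP+ cells against 3.68% ± 1.35 in Ebf2-EGFP- cells. Celf4 rose from 14.9% ± 0.0355 to 22.8% ± 1.81 of the Celf sum in Ebf2-EGFP+ cells and stood at 12.9% ± 3.04 in Ebf2-EGFP- cells at E15.5. Nova1 held 20.9% ± 1.00 of the Nova sum in Ebf2-EGFP+ cells at E11.5, then 6.90% ± 1.76 at E13.5, and 10.4% ± 3.16 by E15.5.

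**Figure D4:**
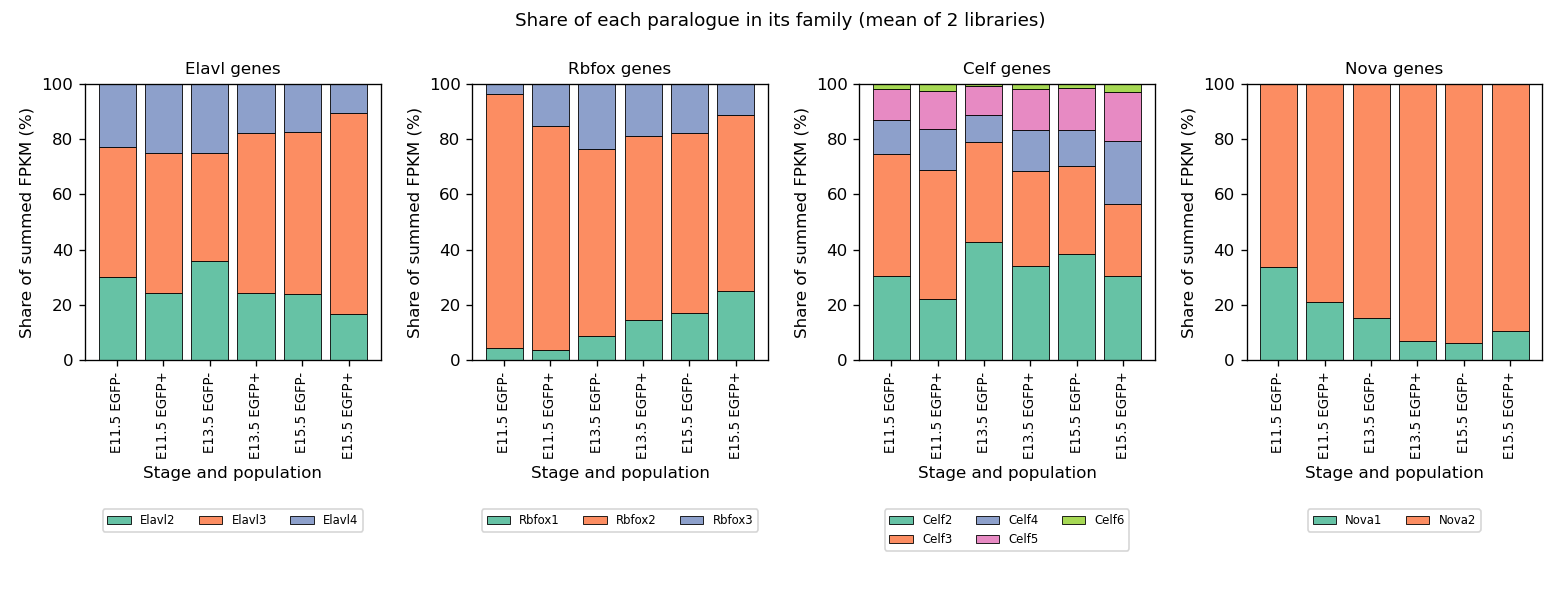
Share of each listed paralogue in the summed FPKM of its family's listed members (y axis, percent, mean of 2 libraries) by stage and population, for the Elavl, Rbfox, Celf and Nova genes. Elavl3 takes 72.6% of the Elavl sum in Ebf2-EGFP+ cells at E15.5, and Rbfox1 takes 25.1% of the Rbfox sum there.

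Most listed genes of the general splicing machinery went the other way from the neuronal regulators. The 2 hnRNPs, abundant proteins that coat nascent transcripts, were called lower in Ebf2-EGFP+ cells at all 3 stages. Hnrnpf, which binds G-rich sequence, measured 157 and 135 FPKM against 370.2 and 324 FPKM at E11.5 and 86.9 and 95.7 against 144 and 125 at E15.5, with log2 fold changes of -1.24 and -0.56 (limma adjusted p = 4.08e-05 and 0.0165). Hnrnpm stood at 201 and 191 FPKM against 285 and 256 FPKM at E11.5 and 95.2 and 86.7 against 158 and 137 at E15.5 (log2 fold change -0.69, standard error 0.15, limma adjusted p = 0.0024). No library of one population reached those of the other for either gene at these stages. The Hnrnpf call at E15.5 was lost without Ebf2-EGFP- library 1 (limma adjusted p = 0.106) or Ebf2-EGFP+ library 1 of E15.5 (limma adjusted p = 0.0869), and under median-of-ratios scaling (limma adjusted p = 0.0743). The E11.5 value of Hnrnpm, -0.46 (limma adjusted p = 0.0138), was likewise not called without Ebf2-EGFP- library 1 or Ebf2-EGFP+ library 2 of E11.5 (limma adjusted p = 0.0915 and 0.0692) or under that scaling (limma adjusted p = 0.197).

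All 4 SR proteins, which bind exonic enhancers and recruit the spliceosome, were also called lower at each of the 3 stages. Srsf2 was the most abundant of them, at 154 and 135 FPKM in Ebf2-EGFP+ and 277 and 251 FPKM in Ebf2-EGFP- cells at E11.5 (log2 fold change -0.87, standard error 0.19, limma adjusted p = 9.77e-04). Srsf1 measured 47.7 and 54.1 FPKM against 81.5 and 74.2 FPKM at E15.5 (log2 fold change -0.60, standard error 0.14, limma adjusted p = 0.00377). Srsf10, whose promoter is printed above, was at 56.1 and 52.1 FPKM against 101 and 97.2 FPKM at E11.5 (log2 fold change -0.86, standard error 0.15, limma adjusted p = 1.88e-04). The E13.5 call of Srsf6, -0.45, was -0.25 and not called without Ebf2-EGFP- library 1 of that stage (limma adjusted p = 0.278), and was lost without Ebf2-EGFP+ library 2 (limma adjusted p = 0.219), under median-of-ratios scaling (limma adjusted p = 0.435) and with the compared groups alone (limma adjusted p = 0.0777). Its E11.5 call was lost without Ebf2-EGFP- library 2 (limma adjusted p = 0.0509). By E15.5 Srsf1 was the only one of the 4 still called without Ebf2-EGFP- library 1, 2 of 4 were called without Ebf2-EGFP+ library 1, and 2 of 4 under median-of-ratios scaling, under which the direction of all 4 stayed the same.

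Within each population the 2 hnRNPs and the 4 SR proteins fell from E11.5 to E15.5. In Ebf2-EGFP+ cells the fall of Srsf10 was lost under median-of-ratios scaling and without Ebf2-EGFP+ library 1 of E15.5 (limma adjusted p = 0.105 and 0.0686). The summed Srsf level (mean ± SD, n = 2) of Ebf2-EGFP- cells went from 618 ± 11.8 to 308 ± 31.7 FPKM, and that of Ebf2-EGFP+ cells from 361 ± 28.6 to 209 ± 8.52. The make-up of the sum barely moved, and Srsf2 held between 39.9% and 42.9% of it in every group mean. None of the 4 SR interactions was called, though Srsf10 was with the replicate block (limma adjusted p = 0.0202). Markers of dividing progenitors moved with these genes: the 7 cell cycle markers, each lower in Ebf2-EGFP+ cells at all 3 stages, summed to between 935 and 1070.05 FPKM in Ebf2-EGFP- libraries of E11.5 and between 146 and 234 FPKM at E15.5, and to between 257 and 284 FPKM and between 54.4 and 57.3 FPKM in Ebf2-EGFP+ cells. The part of cycling cells in the hnRNP and SR values was not tested.

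The core proteins of the spliceosome were split. Lsm2 and Lsm5, subunits of the Lsm ring, Snrpa1, which helps recognise the branch point, and Snrpf, a subunit of the Sm ring, were called lower at E11.5, with log2 fold changes from -1.51 (Lsm2) to -1.002 (Snrpf). Lsm2 measured 28.1 and 23.3 FPKM against 81.0 and 69.3 FPKM at E11.5 (log2 fold change -1.51, standard error 0.19, limma adjusted p = 1.97e-05). Its E15.5 value of -0.53 was -0.29 and not called without Ebf2-EGFP- library 1, nor called without either Ebf2-EGFP+ library of that stage or under median-of-ratios scaling. With the compared groups alone it was not called either (limma adjusted p = 0.0793). The replicates of Snrpf lay far apart at E15.5, at 74.4 and 39.0 FPKM and 107 and 48.8 FPKM, and overlapped between populations (limma adjusted p = 0.328, and 0.00852 with the replicate block). Its E11.5 call was lost without Ebf2-EGFP- library 1, Ebf2-EGFP+ library 1 or Ebf2-EGFP+ library 2 of E11.5 (limma adjusted p = 0.108, 0.0599 and 0.0857).

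Snrpn and Lsm11 ran against the other core proteins. Snrpn encodes SmN, the Sm protein of neurons, from an imprinted locus on chromosome 7 from 59982495 to 60140219 (GRCm38), and its reads cannot be told apart from those of Snurf, which shares its transcript. It was higher in Ebf2-EGFP+ cells at all 3 stages, at 96.4 and 82.3 FPKM against 44.6 and 46.1 FPKM at E11.5 (log2 fold change 0.96, standard error 0.13, limma adjusted p = 4.34e-05) and 138 and 134 FPKM against 90.6 and 88.6 FPKM at E15.5 (log2 fold change 0.60, standard error 0.13, limma adjusted p = 0.00276). Lsm11, part of the particle that processes histone pre-mRNAs, measured 6.60 and 6.70 FPKM against 2.33 and 3.08 FPKM at E13.5 (log2 fold change 1.05, standard error 0.16, limma adjusted p = 1.51e-04) and was called again at E15.5 (limma adjusted p = 0.00444). At E11.5 Lsm11 stood at 3.39 and 3.18 FPKM against 2.92 and 2.55 FPKM and was not called (limma adjusted p = 0.278).

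Of the 6 RBM and RBMS genes, 4 were lower in Ebf2-EGFP+ cells at all 3 stages (Rbm20, Rbm38, Rbm43 and Rbms2), where 21.8% of all listed genes were. The E15.5 value of Rbms2, -0.68, was -0.47 without Ebf2-EGFP- library 1 and -0.54 without Ebf2-EGFP+ library 2, and not called in either fit. With the compared groups alone it was not called either (limma adjusted p = 0.0756). Rbm20, known for the splicing of titin in the heart, measured 0.598 and 0.945 FPKM in Ebf2-EGFP+ and 9.10 and 9.92 FPKM in Ebf2-EGFP- cells at E11.5 (log2 fold change -2.57, standard error 0.25, limma adjusted p = 3.18e-06), and 0.142 and 0.0848 FPKM against 2.48 and 0.945 FPKM at E15.5 (log2 fold change -1.22, standard error 0.25, limma adjusted p = 0.00147). Its log2 fold change at E11.5 was the lowest among the 56 genes, and at E15.5 it came to -0.81 without Ebf2-EGFP- library 1. Rbm38, which binds mRNAs of cell cycle regulators, was at 7.01 and 6.28 FPKM against 15.1 and 10.3 FPKM at E15.5 (log2 fold change -0.82, standard error 0.18, limma adjusted p = 0.00206). Rbm43 stayed under 2 FPKM in every library, and its E15.5 log2 fold change of -0.31 was -0.18 and not called without Ebf2-EGFP- library 1. That call was also lost without either Ebf2-EGFP+ library of any of the 3 stages. Median-of-ratios scaling, the fit without the trend and the compared groups alone lost it too (limma adjusted p = 0.0526, 0.0779 and 0.0804).

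Rbms1, a single-strand nucleic acid binding protein, moved apart from the rest of the family. It measured 3.72 and 4.24 FPKM in Ebf2-EGFP+ and 3.87 and 4.13 FPKM in Ebf2-EGFP- cells at E11.5, where the libraries overlapped (limma adjusted p = 0.977). At E15.5 it stood at 4.12 and 7.51 FPKM against 0.839 and 0.860 FPKM (log2 fold change 1.83, standard error 0.22, limma adjusted p = 3.71e-05), the largest positive log2 fold change of the 56 genes at that stage. The difference had grown by 1.84 on the log2 scale (standard error 0.30, limma adjusted p = 4.29e-04), while the level in Ebf2-EGFP- cells had fallen (log2 fold change -1.43, standard error 0.22, limma adjusted p = 6.20e-05). Its paralogue Rbms3 was uneven between replicates at E15.5, at 1.39 and 3.86 FPKM in the 2 Ebf2-EGFP+ libraries against 2.73 and 2.35 FPKM, so that the sign of its difference depended on which Ebf2-EGFP+ library was kept.

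Of the 9 genes of the helicase families 6 were lower and 2 higher in Ebf2-EGFP+ cells at the first stage, E11.5, and 5 lower and 2 higher at E13.5, where 44.9% and 43.5% of all listed genes were lower. At E15.5 3 were lower and 1 higher and 5 were not called, a share near the 31.6% of all listed genes that were lower. With the replicate block 7 were lower and 2 higher at every one of the 3 stages. Ddx11, a DNA helicase of sister chromatid cohesion despite its family name, differed most among the 9 at E11.5, at 1.26 and 1.87 FPKM against 7.26 and 7.76 FPKM (log2 fold change -1.74, standard error 0.16, limma adjusted p = 2.78e-06), and measured 0.665 and 0.626 FPKM against 1.35 and 1.06 FPKM at E15.5, a call lost without Ebf2-EGFP- library 1 or either Ebf2-EGFP+ library of that stage, without either Ebf2-EGFP- library of E11.5 or Ebf2-EGFP+ library of E13.5, and under median-of-ratios scaling. Ddx18, a nucleolar helicase of ribosome assembly, was called lower at all 3 stages, at 16.9 and 15.1 FPKM against 39.2 and 35.3 FPKM at E11.5 (log2 fold change -1.17, standard error 0.18, limma adjusted p = 1.01e-04). Ddx39, which acts in mRNA export, and Dhx32 were lower at E11.5 as well (log2 fold changes -1.19 and -1.296, limma adjusted p = 1.90e-04 and 1.09e-04). Ddx20, a partner of the SMN complex, had an E11.5 value of -0.65 that was not called without any single E11.5 library (limma adjusted p between 0.0504 and 0.0594). Ddx26b, an older symbol of the integrator-related gene Ints6l, had one of -0.77, which was -0.35 without Ebf2-EGFP- library 2, -0.51 without Ebf2-EGFP+ library 1 and -1.19 without Ebf2-EGFP- library 1.

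Ddx25 and Dhx57 were the exceptions. Ddx25, a helicase best known from the testis, measured 18.8 and 16.1 FPKM against 10.4 and 9.14 FPKM at E11.5 and 31.5 and 27.8 FPKM against 14.4 and 14.9 FPKM at E13.5 (log2 fold change 0.97, standard error 0.17, limma adjusted p = 3.47e-04). Its E15.5 value of 0.51 was 0.34 and not called without Ebf2-EGFP- library 1, nor called without Ebf2-EGFP+ library 2. The fit of the compared groups alone did not call it either (limma adjusted p = 0.0842). Dhx57 was at 22.7 and 24.3 FPKM against 9.72 and 11.8 FPKM at E11.5 (log2 fold change 1.06, standard error 0.15, limma adjusted p = 4.91e-05). Dhx40 was first called lower at E13.5 (log2 fold change -0.81, standard error 0.18, limma adjusted p = 0.00196), and with the replicate block also at E11.5 (limma adjusted p = 0.0284). In Ebf2-EGFP- cells 7 of the 9 fell and 2 rose from E11.5 to E15.5, beside 47.6% and 37.7% of all listed genes.

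The 10 genes of translation, stability and transport did not share 1 direction between populations: at E11.5 4 were called higher and 5 lower, beside 36.8% and 44.9% of all listed genes. The Igf2bp genes, fetal proteins that bind mRNAs and control their localisation, stability and translation, showed their largest differences across time. Igf2bp1 fell from 39.1 and 35.2 to 5.35 and 3.58 FPKM in Ebf2-EGFP- cells (log2 fold change -2.82, standard error 0.19, limma adjusted p = 1.67e-07) and from 24.7 and 27.8 to 3.05 and 2.25 FPKM in Ebf2-EGFP+ cells (log2 fold change -2.91, standard error 0.19, limma adjusted p = 1.85e-07). Igf2bp2 and Igf2bp3 fell in both populations too, with log2 fold changes of -2.75 and -2.13 in Ebf2-EGFP- and -2.59 and -1.87 in Ebf2-EGFP+ cells (limma adjusted p = 2.001e-07, 8.54e-07, 4.21e-07 and 3.04e-06). In Ebf2-EGFP- cells the 3 genes had the largest falls of the 56, and only Qk came between them in Ebf2-EGFP+ cells, at -1.89.

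The 3 Igf2bp sums went from 137 ± 11.8 to 21.1 ± 5.55 FPKM (mean ± SD, n = 2) in Ebf2-EGFP- and from 94.7 ± 0.775 to 15.2 ± 1.26 FPKM in Ebf2-EGFP+ cells. Population differences were small beside that, at -0.48, -0.47 and -0.64 at E11.5 for Igf2bp1, Igf2bp2 and Igf2bp3 (limma adjusted p = 0.0314, 0.0364 and 0.00581). The E11.5 calls of Igf2bp1 and Igf2bp2 were lost under median-of-ratios scaling and without single E11.5 libraries, that of Igf2bp1 without any of the 4. None of the 3 interactions was called, and their values lay between -0.09 (Igf2bp1) and 0.26 (Igf2bp3).

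The Cpeb genes, whose products bind the cytoplasmic polyadenylation element and control local translation, were all called higher in Ebf2-EGFP+ cells at E11.5. Cpeb4 measured 14.95 and 16.4 FPKM against 3.82 and 5.51 FPKM at E11.5 (log2 fold change 1.57, standard error 0.19, limma adjusted p = 1.59e-05) and Cpeb3 3.06 and 2.75 FPKM against 0.853 and 0.834 FPKM (log2 fold change 1.08, standard error 0.18, limma adjusted p = 1.82e-04), and both were called again at E13.5 and E15.5. Cpeb2 was at 6.97 and 6.62 FPKM against 1.04 and 1.302 FPKM at E11.5 (log2 fold change 1.85, standard error 0.24, limma adjusted p = 2.20e-05) and at 1.92 and 3.37 FPKM against 1.76 and 3.11 FPKM at E15.5. Its libraries overlapped at E15.5, and the difference had changed by -1.76 on the log2 scale (limma adjusted p = 9.81e-04). At E15.5 the calls of Cpeb3 and Cpeb4 were lost without Ebf2-EGFP- library 1 (log2 fold changes 0.47 and 0.61), and that of Cpeb3 also without Ebf2-EGFP+ library 2 (log2 fold change 0.49). The Cpeb3 call was lost too with a pseudocount of 0.1 and with the compared groups alone (limma adjusted p = 0.0516 and 0.0808).

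Pabpc1, the cytoplasmic poly(A)-binding protein and the most abundant of the 56 genes over all libraries, measured 147 and 133 FPKM in Ebf2-EGFP+ and 360.2 and 299 FPKM in Ebf2-EGFP- cells at E11.5 (log2 fold change -1.23, standard error 0.18, limma adjusted p = 6.34e-05). By E15.5 it stood at 202 and 173 FPKM against 225 and 166 FPKM, with overlapping libraries (limma adjusted p = 0.842). Msi2, a Musashi protein of neural stem cells, was lower at E11.5, at 24.8 and 27.8 FPKM against 43.3 and 37.9 FPKM (log2 fold change -0.61, standard error 0.19, limma adjusted p = 0.0105). That call was lost without Ebf2-EGFP- library 1 (limma adjusted p = 0.0744) or Ebf2-EGFP+ library 1 of E11.5 (limma adjusted p = 0.071) and under median-of-ratios scaling (limma adjusted p = 0.0768). At E15.5 Msi2 stood at 16.1 and 20.8 FPKM against 18.0 and 12.3 FPKM, with overlapping libraries, and was not called (log2 fold change 0.28, limma adjusted p = 0.22). Under median-of-ratios scaling it was called higher at that stage (log2 fold change 0.48, limma adjusted p = 0.0296). Tnrc6a and Tnrc6b, scaffolds of microRNA silencing, both fell with time in Ebf2-EGFP+ cells (-0.97 and -0.89 on the log2 scale, limma adjusted p = 1.08e-04 and 3.70e-04).

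Over the 3 stages 9 of the 56 genes were called higher in Ebf2-EGFP+ cells at every stage, where 14.6% of all listed genes were: Celf4, Celf6, Khdrbs2, Rbfox1, Srrm3, Snrpn, Ddx25, Cpeb3 and Cpeb4. Another 15 were lower at every stage, where 21.8% of all were: Qk, both hnRNPs, the 4 SR proteins, Lsm2, Rbm20, Rbm38, Rbm43, Rbms2, Ddx11, Ddx18 and Igf2bp1. Together with the 9 above these make 24 genes called at all 3 stages, where 39.8% of all were. All 56 were called at 1 or more stages, as were 97.4% of all listed genes, the table being limited to genes reported as differential. The calls at E15.5 were the least stable of the 3, since 13 of the 30 remained called without each single library, compared with 41 of 50 at E11.5 and 35 of 45 at E13.5. Those 13 were Celf4, Celf6, Elavl2, Elavl4, Hnrnpm, Lsm11, Nova1, Qk, Rbm20, Rbm38, Rbms1, Snrpn and Srsf1. Of the other 17 calls at E15.5, 16 were lost without Ebf2-EGFP- library 1 of that stage, and that of Khdrbs2 without Ebf2-EGFP- library 2 or Ebf2-EGFP+ library 1 (limma adjusted p = 0.0619 and 0.0519).

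Other genes of RNA processing that belong to none of these families were mostly lower in Ebf2-EGFP+ cells. Of a list of 95 such genes (among them Tardbp, splicing factors of the Prpf family and the nucleolar genes Ncl, Npm1 and Fbl), 24 were in the table. At E11.5 19 of the 24 were called lower and 2 higher, the 2 being the RNA-binding ubiquitin ligases Mex3a and Mex3b, beside 44.9% lower and 36.8% higher among all listed genes. The split was 1 higher and 20 lower at E13.5 and 1 higher and 13 lower at E15.5, the 1 being Larp6, beside 43.5% and 31.6% of all listed genes lower at those stages. From E11.5 to E15.5, 21 of the 24 fell and 3 rose in Ebf2-EGFP- cells, and 17 fell and 1 rose in Ebf2-EGFP+ cells, beside 47.6% and 42.1% of all listed genes that fell.

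Markers of further cell types also differed between the fractions, those of erythroid and of meningeal or fibroblast cells chiefly at E11.5. Summed FPKM of the 3 erythroid genes in the table lay between 1205 and 2605 in Ebf2-EGFP- and between 31.2 and 88.6 in Ebf2-EGFP+ libraries at E11.5, and was at most 23.1 in any library of the later stages. The 6 meningeal or fibroblast genes summed to between 110.0 and 129 FPKM in Ebf2-EGFP- and between 41.9 and 47.2 FPKM in Ebf2-EGFP+ libraries at E11.5, and to at most 5.57 FPKM later. The 8 ganglionic eminence or interneuron genes summed to between 190.1 and 242 FPKM in Ebf2-EGFP- cells at E11.5 against between 12.4 and 14.9 FPKM in Ebf2-EGFP+ cells, and to between 47.7 and 61.6 FPKM against between 3.06 and 3.33 FPKM at E15.5. Intermediate progenitor genes (4 in the table) summed higher in Ebf2-EGFP+ cells at E11.5, between 223 and 239 FPKM against between 63.9 and 69.4 FPKM. They summed lower there at both later stages, between 22.2 and 38.3 FPKM against between 144 and 248 FPKM at E15.5. The 3 endothelial genes summed to at most 7.19 FPKM in any library. The 1 microglial gene, Aif1, stayed at or under 2.92 FPKM but was called higher in Ebf2-EGFP+ cells at E13.5 and E15.5. At E15.5 it lay between 2.87 and 2.92 FPKM there, against between 0.626 and 0.773 FPKM in Ebf2-EGFP- libraries. The part of such cells in the differences of the 56 genes was not tested.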

How the data were processed

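Per the labels and the study's methods, poly(A) RNA of sorted cells was sequenced in pairs, aligned to mm10 with TopHat2 2.0.8b and summarised as FPKM with Cufflinks 2.2.0. The deposited values are FPKM per gene and library, for 4859 genes reported as differential. Columns of the authors' means, fold changes and p-values were not used. No counts were given, so a count test was not possible. FPKM were tested as log2(FPKM + 1) with limma 3.58.1 (R 4.3.3), 6 groups of 2 libraries in 1 trended fit, with p-values adjusted over 4859 genes and called under 0.05. Tested on simulated data for the E11.5 difference over 4859 genes, the fit recovered 178 of 200 changed genes with 8 false calls. The simulation changed few genes, gave them large shifts and used independent errors, unlike this table of preselected genes. It therefore checks that the fit runs correctly and does not measure error rates in these data. The study's methods describe the 2 libraries of a group as biological replicates, each from pooled embryos of several mice, while the labels name no animals. P-values rest on the spread between such pools, estimated jointly over all 6 groups and moderated across genes, not on that of the compared groups alone. Deviations of same-numbered libraries correlated at 0.431, 0.534 and 0.431 at the 3 stages. That alone does not show that they were sorted together, which neither the labels nor the study's methods state. A fit with a block on the number was therefore only an alternative. Other alternatives were a pseudocount of 0.1, median-of-ratios scaling, a minimum mean of 1 FPKM, no trend, the compared groups alone and each library left out. Genes described singly were 28 members of a list of 49, in each comparison the 5 largest called changes without overlap in each direction, and the 5 highest mean FPKM. The other 15 members were added so that all 56 are accounted for. The members and lists were chosen with earlier results of these data known. Gene positions are from GENCODE (GRCm38) and promoters from RefSeq (GRCm38.p6).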

Additional observations from a re-analysis of the deposited data

Results flagged for a closer look

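For 28 of the 56 genes the population difference changed between E11.5 and E15.5, by the interaction test in limma (adjusted p under 0.05 over 4859 genes). The values here are the log2 fold change at E15.5 minus that at E11.5.

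Of the splicing regulators 12 fell. The values were -3.77 for Rbfox3, -2.78 for Elavl4, -2.52 for Srrm4, -2.17 for Elavl2, -1.82 for Celf3, -1.80 for Elavl3, -1.62 for Rbfox2, -1.47 for Celf5, -1.45 for Nova2, -1.33 for Celf2, -1.05 for Srrm3 and -0.85 for Celf4. Mbnl3 rose by 1.09. Among the genes of translation and stability, Cpeb2 changed by -1.76, Cpeb4 by -0.82 and Tnrc6a by -0.64, while Msi2 rose by 0.88 and Pabpc1 by 1.18. The helicase Dhx57 changed by -0.71.

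The positive values belong to genes that were lower in Ebf2-EGFP+ cells at E11.5, except Rbms1, which did not differ by the test at that stage and changed by 1.84. They were 0.69 for Hnrnpf, 0.70 for Snrpa1, 0.99 for Lsm2, 0.88 for Rbm43, 1.35 for Rbm20, 0.73 for Ddx39, 0.96 for Dhx32 and 1.32 for Ddx11.

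The calls of Celf4, Cpeb4, Ddx39, Dhx32, Dhx57, Hnrnpf, Msi2, Snrpa1 and Tnrc6a were each lost without 1 or more single libraries, and the other 19 remained called without each of the 12. With a pseudocount of 0.1 the calls of Rbm20 (0.54, limma adjusted p = 0.44), Mbnl3 (1.23, limma adjusted p = 0.0762), Ddx39 and Snrpa1 were lost. At E15.5 Mbnl3 was at or under 0.235 FPKM in every library and Rbm20 at or under 0.142 FPKM in Ebf2-EGFP+ cells.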

How the results depend on the processing

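Blocking on the replicate number raised the 18 genes lower at E15.5 to 29 and changed no other count over the 56 genes by over 1.5 times. By role, the 3 helicases lower at E15.5 became 7 and the 3 splicing regulators 5. The block also added the core proteins Lsm5, Snrpa1 and Snrpf, and Igf2bp2 and Igf2bp3, to the genes lower at that stage. Among single genes it lost no call and added 32. For the changes between stages the block could not be fitted, since a number is shared only within a stage. Median-of-ratios scaling turned the 9 genes that rose in Ebf2-EGFP+ cells into 16, lost 23 calls of single genes and added 16. Without single libraries the 18 lower at E15.5 became 7 to 23, the 9 that rose in Ebf2-EGFP+ cells became 6 to 11, and the 12 higher interactions became 7 to 12, while the log2 fold change of Rbms3 at E15.5 ran from -0.56 to 0.46. The causes were not tested. Leaving out libraries lost 173 calls of single genes and added 55, the pseudocount of 0.1 lost 6 and added 4, fits of the compared groups alone lost 12 and added 5, a fit without the trend lost 2 and added 6, and a minimum mean of 1 FPKM lost none and added 3. A pseudocount of 0.1 moved the median of all genes by -0.23 in the interaction and by -0.11 in both changes between stages. Depth is unknown from FPKM, 2 libraries per group limit every standard error, and genes near or under 1 FPKM, such as Rbm43, are the least certain.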
